A study of Mus musculus with 2 samples.

Results

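The genes described here encode hormones and other signals that fat cells release: Adipoq, Lep, Cfd, Retn, Nrg4, Fgf21, Bmp8b, Angptl4, Vegfa and Il6. They were taken by gene name for what they encode and are 10 of the 30649 gene names in the table. The data are mRNA-seq of interscapular brown adipose tissue (BAT) from wild type (WT) C57BL/6 mice and from C57BL/6 mice without Taf7l (Taf7l KO; C57BL/6J in the study's methods), a gene for a subunit of the transcription factor TFIID. Each library was made from the combined RNA of 6 animals. With 1 library per genotype, no difference has a replicate check and no test between genotypes was run. Both pools carry an age of 1 month in the labels, but another label of the KO pool gives 3 months, so that an age difference cannot be told apart from genotype. The sex of the pooled mice is not given in the sources used here. The fat pads were dissected by texture and colour. Values are FPKM (fragments mapped to a transcript, relative to its length in kilobases and to all mapped reads), summed over the transcript rows of a gene, and FPKM can be compared between genes because they are per length.

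Fat tissue is an endocrine organ. Adiponectin and leptin are hormones made almost solely by fat cells, adipsin is a serine protease of the complement system, and brown fat releases further signals that act on liver, vessels, nerves and the fat pad itself. Leptin and resistin are known mainly as hormones of white fat.

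The 7 secreted factor genes with a clear signal differed little between the libraries. Of the 10 members, 7 reached 1 FPKM in at least 1 library, and these were compared as the log2 of (KO + 0.1) over (WT + 0.1). Past 1.5-fold, 0 of the 7 were higher in KO and 0 were lower, while 16.5% of all 12171 genes compared were higher and 12.7% lower (29.2% either way). Past 3-fold the count was again 0 of 7 in both directions, beside 2.05% (higher) and 0.403% (lower) of all genes (2.46% either way). The median log2 ratio of the 7 was -0.08, beside 0.01 over all genes compared, and 3 of the 7 were higher and 4 lower in KO. Their log2 ratios ran from -0.34 for Adipoq to 0.49 for Vegfa, and 63.3% of all genes compared had a log2 ratio within 0.5 of 0. The summed FPKM of the 10 genes was 3481 in WT and 3447 in KO. Most of it came from Cfd, which was higher in KO, and Adipoq, which was lower, so the near-equal sums hide opposite differences.

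**Figure D1:**
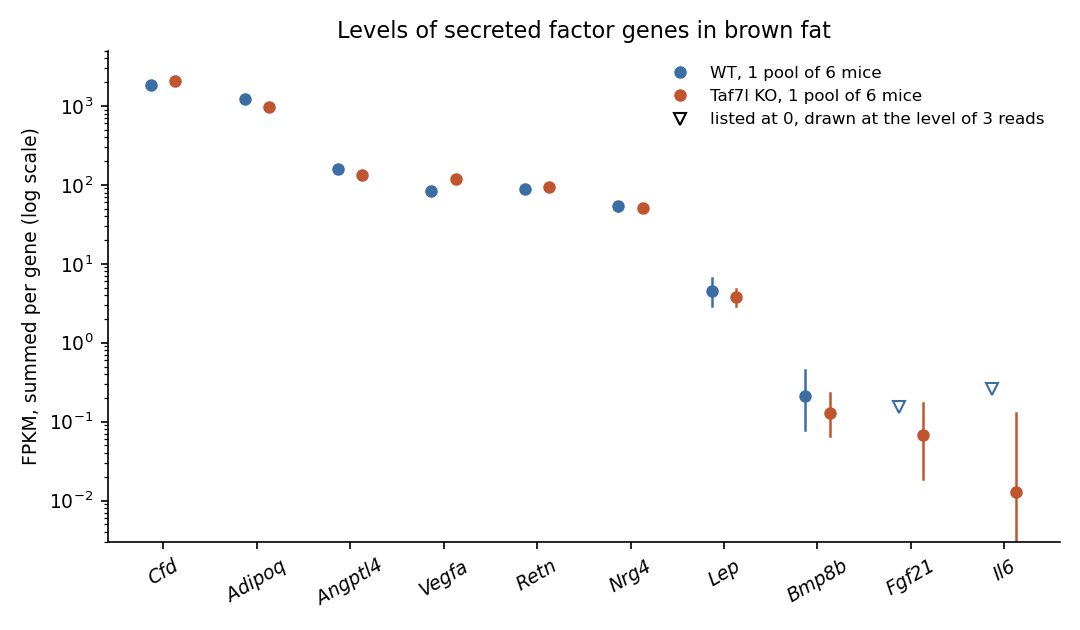
FPKM (log scale) of the 10 genes in the WT and the Taf7l KO library, with 1 point per library; bars are 95% exact Poisson intervals on estimated reads (counting error only, that of Il6 in KO runs below the axis), and open triangles are genes listed at 0, drawn at the level of 3 reads. The levels run from 2078 FPKM for Cfd in KO down to 0 for Fgf21 and Il6 in WT, and the 7 genes above 1 FPKM have KO points within 1.5-fold of their WT points.

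The libraries differed in estimated depth and in the markers of several cell types. Estimated from the spacing of low FPKM values, the WT library held 25898115 mapped reads and the KO library 78395788, a ratio of 3.03. Taf7l itself was listed at 0.0222 FPKM in WT against 0.00734 FPKM in KO, at most 1 read in each, so it does not check the genotype labels. Markers of brown fat cells were present in both libraries, and their summed level was 14698 FPKM in WT against 6502 FPKM in KO. Of 10, 6 were at least 1.5-fold lower in KO and 0 at least 1.5-fold higher, or 1 higher with a pseudocount of 0.01 FPKM. Scaled to the reference gene Ppia, which put the median log2 ratio of all genes at 0.45, 3 were lower and 2 higher. After rescaling without muscle markers and the highest genes, 5 were lower and 1 higher. All 14 skeletal muscle markers were at least 3-fold higher in KO, with sums of 125 FPKM in WT against 2027 FPKM in KO and none at 0 in WT. Of 9 markers shared by all fat cells, 2 were at least 1.5-fold higher and 2 lower, with a median log2 ratio of 0.10. Their sums were 22803 FPKM in WT against 14456 FPKM in KO, mostly from Fabp4 (19657 FPKM and 10713 FPKM). Of 8 endothelial markers, 0 passed 1.5-fold either way (sums of 262 FPKM and 241 FPKM), and of 10 macrophage markers compared 4 were higher and 0 lower (197 FPKM and 179 FPKM). Past 1.5-fold, 1 of 6 stromal markers was higher and 2 lower (223 FPKM and 201 FPKM), 0 of 2 lymphocyte markers differed (2.78 FPKM and 2.70 FPKM), and both neutrophil markers compared (14.8 FPKM and 4.98 FPKM) and 1 of 2 red blood cell markers (3886 FPKM and 2047 FPKM) were lower. Other counts depended on processing too. Scaled to Ppia, 4 of the 9 markers shared by fat cells were higher and 0 lower. Stromal markers were 2 higher and 0 lower when scaled to Ppia or corrected for GC content and transcript length. With that correction, 2 of 8 macrophage markers were higher and 1 of 2 neutrophil markers lower. The sums cover all markers found, those under 1 FPKM included. No marker found in the table was at 0 in either library. In such bulk tissue, fewer cells of a type and less RNA per cell cannot be told apart. The part of these cell types, and of depth, in the values of the secreted factors was not tested.

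Since TAF7L is a TFIID subunit and TFIID assembles on core promoters, the core promoters of 4 members are shown, the pair with the highest levels and the pair in which the letters TATAA were found. They are RefSeq sequences of build GRCm38.p6, 5′ to 3′ on the strand of the gene, with 60 bases before the annotated start and 20 bases from it, and TATAA in capitals.
Adipoq (chr16:23146476-23146555, plus strand): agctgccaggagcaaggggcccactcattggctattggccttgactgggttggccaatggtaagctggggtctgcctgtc
Cfd (chr10:79890793-79890872, plus strand): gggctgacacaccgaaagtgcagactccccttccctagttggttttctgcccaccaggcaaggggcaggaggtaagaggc
Lep (chr6:29060161-29060240, plus strand): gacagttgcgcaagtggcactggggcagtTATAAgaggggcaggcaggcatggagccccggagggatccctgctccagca
Fgf21 (chr7:45615471-45615550, minus strand): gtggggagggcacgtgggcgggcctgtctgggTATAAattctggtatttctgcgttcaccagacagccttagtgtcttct
Promoters were found for 9 of the 10 members. Searched on both strands, TATAA occurred in the window of Lep, where it begins 31 bases before the start and overlaps its own reverse copy, and of Fgf21, where it begins 28 bases before the start. Of all 32851 promoters, 8.48% hold it on either strand in a window of this length. A match is a description of the letters, and binding at these promoters was not measured in these libraries.

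Adiponectin and adipsin had the most abundant transcripts among the members. Adipoq, on chromosome 16 of GRCm38 from 23146536 to 23158028, encodes adiponectin, which raises insulin sensitivity and circulates as trimers and larger assemblies. It had 1227 FPKM in WT against 968 FPKM in KO, the lower level being in KO. KO was 0.789 times WT, with an interval of 0.771 to 0.807. This and the following intervals are 95% exact binomial intervals on estimated reads, computed with the shortest annotated transcript of each gene, and cover counting error only. Cfd (chromosome 10, 79890853 to 79892655), the gene for adipsin (complement factor D), had 1863 FPKM in WT against 2078 FPKM in KO. Here the KO library was the higher one, 1.12-fold, with an interval of 1.10 to 1.13. Among all gene names, Cfd ranked 49 in WT and 28 in KO, and Adipoq ranked 80 and 85.

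These levels can be set against fat cell genes within each library, which no scaling between libraries changes. Cfd stood below Ucp1, the uncoupling protein of brown fat, in WT (0.501 times its level) and above it in KO (1.27 times), where Ucp1 had 3720 FPKM in WT against 1639 FPKM in KO. Adipoq was 0.330 times Ucp1 in WT and 0.590 times in KO. Relative to Fabp4, the main fatty acid carrier of fat cells, Adipoq was at 0.0624 in WT and 0.0903 in KO. Relative to Pparg, a nuclear receptor needed to form fat cells, it lay the other way, at 8.96 in WT and 5.06 in KO. Cfd was at 0.0948 of Fabp4 in WT and 0.194 in KO, but at 13.6 times Pparg in WT and 10.9 times in KO. As deposited, the direction of both genes thus depends on the fat cell gene they are set against. The correction for GC content and transcript length, given below, differs by gene and does change such ratios. It moved the log2 ratio of Fabp4 from -0.88 to 0.10, that of Ucp1 from -1.18 to -0.91 and that of Pparg from 0.48 to 0.51. The corrected log2 ratio of Adipoq (-0.01) lay below Fabp4 and Pparg and above Ucp1. That of Cfd (0.19) lay above Fabp4 and Ucp1 and below Pparg.

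Lep and Retn, which are typical of white fat, had unlike levels. Lep (chromosome 6, 29060220 to 29073877), the gene for the satiety hormone leptin, had 4.51 FPKM in WT against 3.80 FPKM in KO. KO was 0.842 times WT with an interval of 0.525 to 1.38. That interval assumes the shortest transcript, of 420 bp, with an estimated 25.7 reads in WT and 65.6 reads in KO. With the longest transcript, of 3259 bp, the estimates are 357 reads and 911 reads, and the interval would be narrower. Whether that narrower interval would still hold 1 was not computed. Retn (chromosome 8, 3655770 to 3660110) encodes resistin, a hormone that opposes insulin in mice, and had 88.3 FPKM in WT against 94.5 FPKM in KO. It was 1.07-fold higher in KO, with an interval of 1.01 to 1.13. A row that holds 89.0% of the Retn level in WT holds 88.8% in KO, so the share of its transcript rows was about the same in both libraries.

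**Figure D2:**
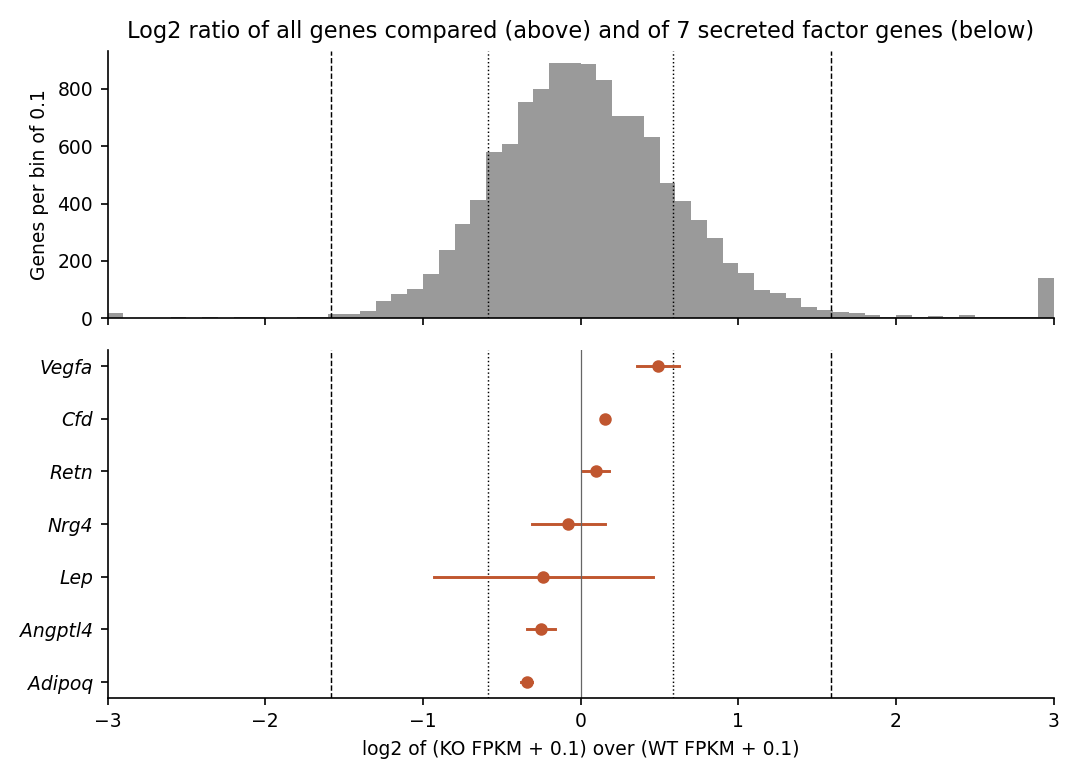
Above, numbers of genes by log2 ratio of KO over WT (pseudocount of 0.1 FPKM) over the 12171 genes compared, with the end bins holding all genes beyond 3 in size; below, the 7 members at 1 FPKM or more with 95% exact binomial intervals for counting error. Dotted lines mark 1.5-fold and dashed lines 3-fold, and all 7 points lie between the dotted lines, from -0.34 for Adipoq to 0.49 for Vegfa.

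Angptl4 and Vegfa, signals to the vessel wall, lay on opposite sides of an equal level. Angptl4 (chromosome 17, 33773750 to 33781830) encodes a secreted inhibitor of lipoprotein lipase and is a known target of PPAR receptors. It had 159.7 FPKM in WT against 134 FPKM in KO, lower in KO at 0.840 times the WT level, with an interval of 0.789 to 0.894. Vegfa (chromosome 17, 46016993 to 46032369) encodes the main growth factor of blood vessels, which brown fat cells and muscle fibres both make. It had 83.9 FPKM in WT against 118 FPKM in KO, the highest ratio among the 7 genes at 1.41-fold, with an interval of 1.28 to 1.54. The skeletal muscle markers were also higher in KO, with the sums given above, and their part in the Vegfa value was not tested. Vegfa was at 0.0226 of Ucp1 in WT and 0.0719 in KO, at 0.00427 of Fabp4 in WT and 0.011 in KO, and at 0.613 of Pparg in WT and 0.616 in KO.

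All 7 transcript rows of Vegfa were higher in KO, by 1.31-fold to 1.51-fold. The row with the highest level, which spans 6182 bp inside the locus, had 31.7 FPKM in WT against 48.0 FPKM in KO and alone passed 1.5-fold. The 3 longest rows, each spanning 15384 bp, had the lowest levels, between 6.58 FPKM and 6.90 FPKM in WT and between 8.99 FPKM and 9.47 FPKM in KO. A further row at this locus is listed under the name Vegf and was not part of the sum. It had 4.74 FPKM in WT against 9.50 FPKM in KO, and with it Vegfa was 1.44-fold higher in KO. Cufflinks divides reads among overlapping rows, so the values of single rows are estimates.

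**Figure D3:**
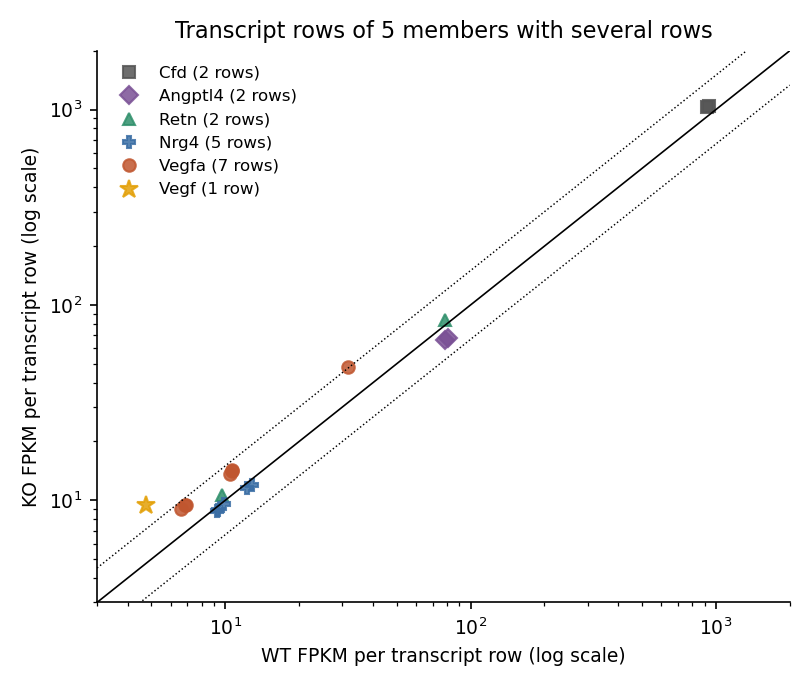
FPKM of single transcript rows in WT and in KO (both log scales) for Cfd, Angptl4, Retn, Nrg4 and Vegfa, and for the row named Vegf. The solid line marks equal levels and the dotted lines 1.5-fold; all 7 Vegfa rows and the Vegf row lie above the solid line, and all 5 Nrg4 rows lie just below it.

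Nrg4, Bmp8b, Fgf21 and Il6 are known as signals of active brown fat, and only the first was clearly expressed. Nrg4 (chromosome 9, 55220222 to 55326844), a ligand of ErbB receptors that acts on liver, had 53.6 FPKM in WT against 50.7 FPKM in KO. KO was 0.946 times WT with an interval of 0.808 to 1.11, and the 5 rows lay between 0.931 and 0.959 times. The Nrg4 rows overlap those of Fbxo22 by 4212 bp, and reads in the overlap could not be assigned to either gene here. Bmp8b (chromosome 4, 123105165 to 123132099), a BMP family ligand that raises the response of brown fat to sympathetic input, had 0.211 FPKM in WT against 0.13 FPKM in KO. These rest on an estimated 6.15 to 14.98 reads in WT and 11.5 to 27.9 reads in KO, depending on the transcript length assumed, and the interval of the fold was 0.205 to 1.99. Its rows also overlap Ppie, a gene at 16.3 FPKM in WT, so even this low level may hold reads of another gene.

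Fgf21 and Il6 were at the limit of detection. Fgf21 (chromosome 7, 45613886 to 45615490), an endocrine growth factor that brown fat can release in the cold and liver on fasting, was listed at 0 in WT and at 0.0684 FPKM in KO, an estimated 4.02 reads. A count of 0 allows up to 0.154 FPKM in the WT library (3 reads), which is above the KO value, so no fold is given. Il6 (chromosome 5, 30013114 to 30019981), the gene for the cytokine interleukin-6, was listed at 0 in WT and at 0.0129 FPKM in KO, between 0.456 and 2.17 reads, against a limit of 0.257 FPKM in WT. For neither gene was a difference between genotypes detectable at this depth.

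The order of levels was nearly the same in both libraries. In WT it ran Cfd, Adipoq, Angptl4, Retn, Vegfa, Nrg4, Lep and Bmp8b. The counting intervals of neighbours overlapped only for Retn (83.9 to 92.8 FPKM) and Vegfa (77.1 to 91.1 FPKM). In KO, Vegfa (113 to 123 FPKM) stood above Retn (91.9 to 97.2 FPKM) and below Angptl4 (130 to 139 FPKM), with no overlap. The 3 genes nearest to Vegfa in the plane of the log2 WT and log2 KO levels were Tufm, Macrod1 and Gnpat, at distances of 0.08 to 0.10, and those nearest to Adipoq were Cyc1, Acadvl and Rplp1, at 0.10 to 0.16. With 2 libraries, this likeness covers only a level and a ratio.

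Of 31 receptors and partners of the 10 factors, 24 were compared, 5 were at least 1.5-fold higher in KO, 3 at least 1.5-fold lower and 0 reached 3-fold, with a median log2 ratio of 0.04. These counts lie near the shares of all genes (16.5% higher and 12.7% lower). Scaled to Ppia they were 10 higher and 0 lower. That scaling put the median log2 ratio of all genes at 0.45, so counts made with it cannot be set against these shares. This holds for every count scaled to Ppia given here. Fgfr1, the FGF receptor through which FGF21 acts, had 6.01 FPKM in WT against 16.3 FPKM in KO (log2 ratio 1.42), and its FGF21 co-receptor Klb had 4.65 FPKM and 6.66 FPKM. Il6ra, the IL-6 receptor, had 0.564 FPKM in WT against 1.67 FPKM in KO, while the shared signal subunit Il6st had 10.8 FPKM and 10.6 FPKM. Both ligands concerned were at the limit of detection in the same libraries. The signal transducer Stat3 had 8.54 FPKM in WT against 11.6 FPKM in KO, and Socs3, its feedback inhibitor, stayed under 1 FPKM.

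Among VEGF receptors, Flt1 had 5.75 FPKM in WT against 9.72 FPKM in KO (log2 ratio 0.75). Nrp1, a co-receptor, had 91.9 FPKM and 47.4 FPKM (-0.95), but without its row spanning under 200 bp it had 25.5 FPKM and 25.7 FPKM (0.01), so that its lower level in KO rests on that short row. No other list gene compared changed when such rows were left out. Kdr, the main signalling receptor on endothelium, had 14.2 FPKM in WT against 14.4 FPKM in KO, and Nrp2 had 8.64 FPKM and 10.2 FPKM. Of the 8 endothelial markers, 0 passed 1.5-fold as deposited, and 4 were higher when scaled to Ppia. Vegfb, a relative of Vegfa, had 63.2 FPKM in WT against 134 FPKM in KO, a 2.11-fold higher level. Vegfb was thus below Vegfa in WT and above it in KO.

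The adiponectin receptors Adipor1 and Adipor2 were close to equal, with 70.9 FPKM and 76.5 FPKM for Adipor1 and 159.2 FPKM and 158.8 FPKM for Adipor2 in WT and KO. Cdh13, the cadherin that binds large adiponectin assemblies, had 3.34 FPKM in WT against 5.17 FPKM in KO. Genes for the folding and secretion of adiponectin had a median log2 ratio of 0.04 over 6 genes, with Plod3, a lysyl hydroxylase, as the gene past 1.5-fold (6.09 FPKM and 11.6 FPKM). The most abundant were Gstk1 (63.4 FPKM in WT against 60.9 FPKM in KO), P4hb (39.5 FPKM and 34.9 FPKM) and Plod1 (16.6 FPKM and 16.2 FPKM). The leptin receptor gene Lepr had 10.02 FPKM in WT against 8.07 FPKM in KO.

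C3, the complement protein whose activation adipsin serves, had 78.6 FPKM in WT against 138 FPKM in KO, a log2 ratio of 0.82. The protease Cfb, which adipsin cleaves, had 3.43 FPKM and 4.33 FPKM, and the regulator Cfp had 5.88 FPKM and 5.42 FPKM, a difference of less than 1.5-fold. C3ar1 was under 1 FPKM in both. The NRG4 receptors Erbb3 (0.0907 FPKM and 0.150 FPKM) and Erbb4 (0.0863 FPKM and 0.0407 FPKM) were near 0 in both libraries, while their ligand Nrg4 stood at 53.6 FPKM and 50.7 FPKM. The list of BMP receptors also took in activin receptor genes. Of its 4 genes compared, Acvr1c (ALK7), which fat cells express, was lower in KO (5.87 FPKM and 3.16 FPKM). As an activin receptor gene, Acvr1c is not read here as a receptor of BMP8B. Acvr2a was lower too (1.296 FPKM and 0.723 FPKM), whereas Bmpr1a had 5.16 FPKM and 3.95 FPKM and Acvr1 2.45 FPKM and 2.56 FPKM. Lpl, the lipase that ANGPTL4 inhibits, had 631 FPKM in WT against 586 FPKM in KO, Gpihbp1, which anchors it to capillaries, 181 FPKM and 136 FPKM, and Lmf1, which the lipase needs to fold, 18.3 FPKM and 23.6 FPKM.

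**Figure D4:**
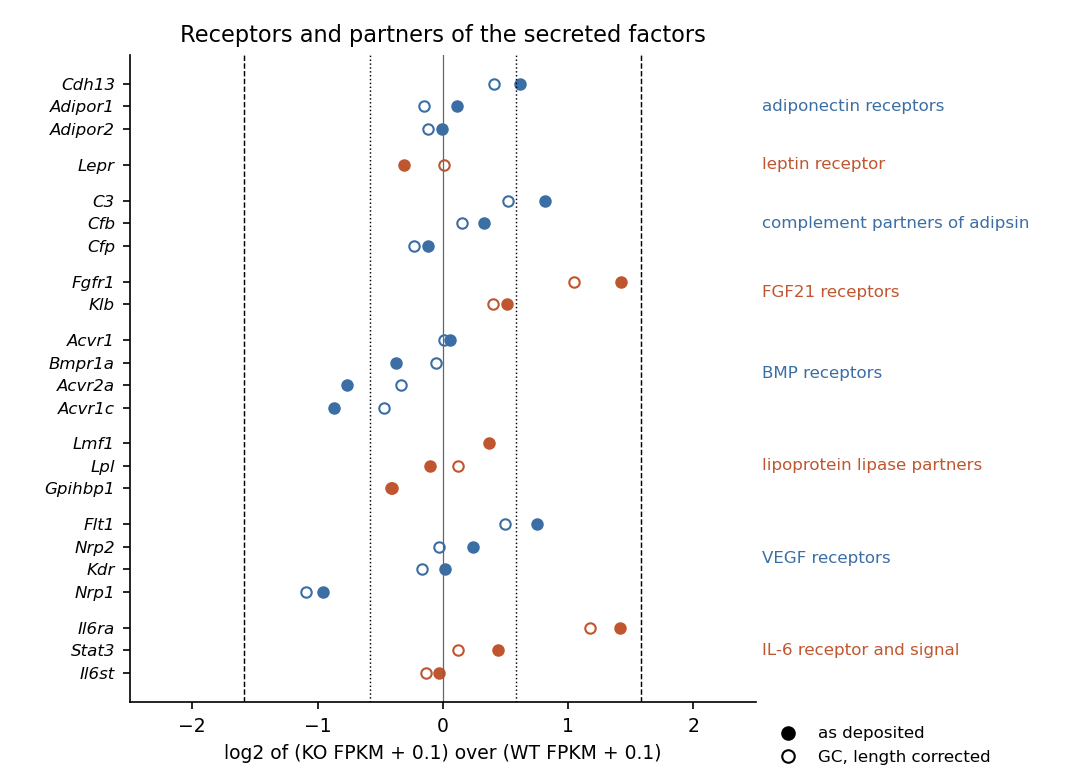
Log2 ratio of KO over WT for receptor and partner genes at 1 FPKM or more, grouped by ligand; filled points are values as deposited and open points values after correction for GC content and transcript length, which Lmf1 lacks. Dotted lines mark 1.5-fold and dashed lines 3-fold, and of the genes past 1.5-fold only Fgfr1, Il6ra and Nrp1 have their open point past it too. The points of Nrp1 include its short row.

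Correction of the log2 ratios for GC content and transcript length ended some of these calls. Of the 23 receptor and partner genes with a GC content and a length, 2 were then at least 1.5-fold higher, Fgfr1 (log2 ratio 1.05) and Il6ra (1.18), and 1 at least 1.5-fold lower, Nrp1 (-1.09, with its short row). C3 (0.52), Flt1 (0.50), Cdh13 (0.41), Acvr1c (-0.47) and Acvr2a (-0.33) then lay within 1.5-fold, as did Plod3 (0.50) of the folding genes, while Vegfb lay past it (0.85). Adipoq moved from -0.34 to -0.01 and Retn from 0.10 to 0.39, so the sizes of their small differences rest on this choice.

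Other secreted factors of fat lay on both sides of an equal level. Of 14 further adipokines compared, 3 were at least 1.5-fold higher and 1 lower, with a median log2 ratio of 0.06, again near the shares of all genes (16.5% and 12.7%). Scaled to Ppia, which put the median of all genes at 0.45, 6 were higher and 0 lower. Of the 12 with a GC content and a length, 2 were higher and 0 lower after that correction. The most abundant were Rarres2 (chemerin), with 74.4 FPKM in WT against 67.2 FPKM in KO, Nampt (Pbef1 in the table), with 73.8 FPKM and 39.7 FPKM, and C1qtnf12 (C1qdc2 in the table), with 50.3 FPKM and 54.8 FPKM. Nampt was the gene past 1.5-fold lower as deposited. It has no corrected value and is not among the 12, so the correction does not bear on its call. Retnla, a paralog of resistin that macrophages also make, was 1.95-fold higher with 30.2 FPKM and 58.8 FPKM. Its corrected log2 ratio was 1.67, which is past 3-fold. C1qtnf1 was 2.36-fold higher with 2.33 FPKM and 5.50 FPKM (corrected log2 ratio 0.97). C1qtnf6 was higher at 3.14 FPKM in KO (1.57-fold), a call that the correction ended (log2 ratio 0.36). Itln1 was listed at 0 in both. Of 7 further brown fat secreted factors, 2 were at least 1.5-fold higher, Pltp (19.9 FPKM and 31.9 FPKM) and Cxcl14 (4.24 FPKM and 6.95 FPKM), 0 were lower, and the median log2 ratio was 0.31. Corrected for GC content and length, Pltp lay at 0.40, within 1.5-fold, and scaled to Ppia 5 of the 7 were higher. Igf1 had 5.64 FPKM in WT against 5.87 FPKM in KO.

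Of 9 paralogs of the members at 1 FPKM or more, Vegfb and Retnla were at least 1.5-fold higher and Cntf lower (1.23 FPKM and 0.599 FPKM, log2 ratio -0.50 after correction), and Angptl2 had 26.9 FPKM and 35.1 FPKM. Retnlb, Nrg1, Fgf15 and Fgf23 were listed at 0 in both libraries. Of 15 known regulators of the members, 3 were at least 1.5-fold higher and 3 lower, with a median log2 ratio of 0.03, where 16.5% and 12.7% of all genes were. These counts depended on scaling. They were 6 higher and 0 lower when scaled to Ppia, which put the median of all genes at 0.45. After rescaling without muscle markers and the highest genes, with that median at 0.21, they were 5 higher and 1 lower. Arnt (4.69 FPKM in WT, 7.996 FPKM in KO) and Rela (8.24 FPKM, 13.3 FPKM) were among the higher ones. Hif1a, a partner of ARNT in the response to low oxygen that raises Vegfa, was lower (8.81 FPKM, 5.38 FPKM), as was Cebpd (2.23 FPKM, 1.303 FPKM). Epas1, a more abundant regulator in this list, lay the other way from Hif1a but within 1.5-fold. It had 44.2 FPKM in WT against 63.9 FPKM in KO (log2 ratio 0.53). Corrected for GC content and length, Rela (log2 ratio 0.25) and Hif1a (-0.33) lay within 1.5-fold. The most abundant were Cebpa, with 206 FPKM in WT against 210.1 FPKM in KO, Pparg, with 137 FPKM and 191 FPKM, and Cebpb, with 114 FPKM and 127 FPKM. Ppara, a regulator of Fgf21 and Angptl4 in liver, had 28.4 FPKM in WT against 15.4 FPKM in KO, and Ppard, another PPAR that acts on Angptl4, was higher, at 2.91 FPKM and 7.27 FPKM.

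**Figure D5:**
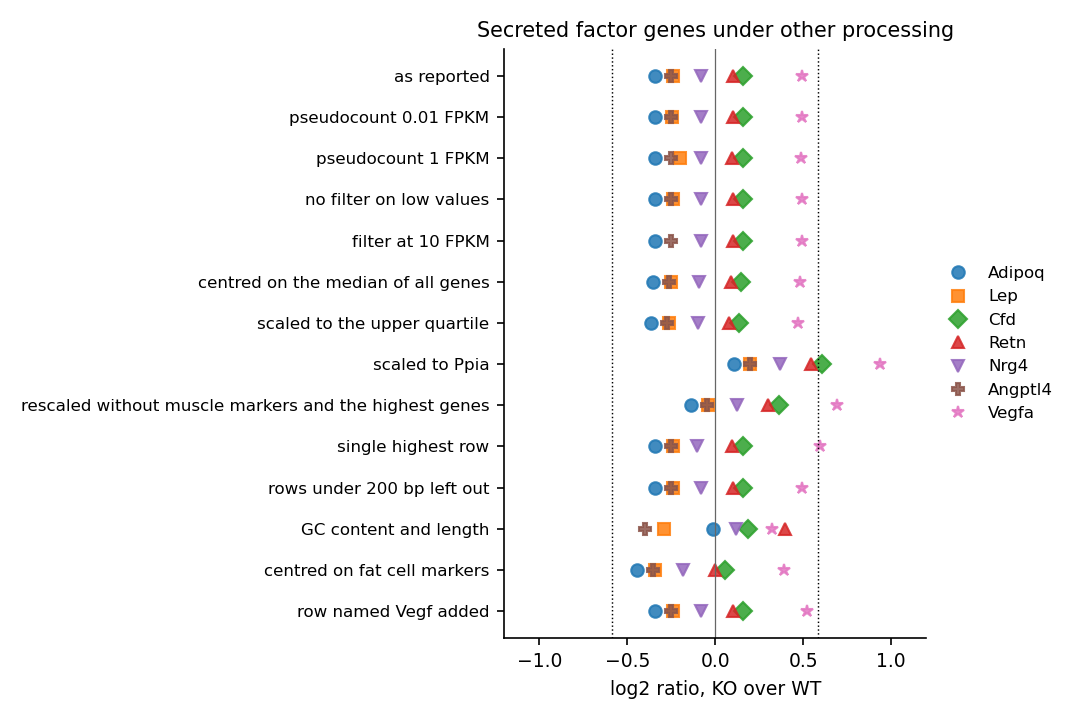
Log2 ratio of KO over WT for the 7 members as reported and under 13 other ways of processing the table; dotted lines mark 1.5-fold. Scaling to Ppia moves all 7 to the right, and under it Vegfa and Cfd pass the line; Vegfa also does after rescaling without muscle markers and the highest genes and with the single highest row.

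The direction of small differences depended on scaling. Scaled to Ppia (cyclophilin, with 1642 FPKM in WT against 1203 FPKM in KO), the median log2 ratio of all genes was 0.45 in place of 0.01, and Adipoq (0.11), Lep and Angptl4 (both 0.20) and Nrg4 (0.37) were higher in KO. All 4 values lay below that median. Cfd and Vegfa were higher in KO under each of the 13 alternatives, with log2 ratios from 0.06 to 0.61 for Cfd and from 0.33 to 0.94 for Vegfa. Ratios between these genes within a library, as given above, do not change with a scaling factor.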

How the data were processed

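One mRNA-seq library from each genotype was analysed. The authors mapped single-end reads with TopHat and deposited FPKM per UCSC transcript from cufflinks. Bowtie and the build mm10 are named too, in the submitters' processing notes. Only 314 of 7067 single-row genes begin in the table within 1000 bp of where GRCm38 has them. The gene positions printed are therefore from GENCODE M21 on GRCm38. Spans of transcript rows and overlaps between rows were still taken from the deposited positions, whose build is not settled. Whether the libraries kept strand is not given in the sources used here.

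FPKM were summed per gene name over 55350 rows. Genes that reached 1 FPKM in either library were compared with a pseudocount of 0.1 FPKM, which understates changes of low genes. With 1 library per genotype no p-value or SD exists. The 3-fold threshold follows the study, and 1.5-fold was added. Mapped reads were estimated from the low values of genes with 1 row and 1 transcript length, for fragments of 200 bp (SD 80 bp). At the estimated depth, 72.0% of 775 such values (WT) and 73.8% of 641 (KO) came within 0.05 of a whole read, and the KO estimate exceeds the read number in the labels, so intervals are approximate. GC content and length were corrected by lowess. Only 68.8% of the genes compared had both, too few for a statement over all genes, but all 7 members compared had them. The steps were tested on simulated data. Software was Python 3.11.15 with numpy 2.4.6, pandas 2.3.3, scipy 1.17.1, statsmodels 0.14.6 and matplotlib 3.10.9.

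The members and lists were chosen with earlier results of these data known. Genes were named by a rule: all members, the 3 most abundant genes of each list, genes 3-fold changed or listed at 0 in both libraries, whole lists of 5 genes or fewer, and the 3 genes nearest to the members of highest and lowest ratio. Marker and reference lists are given by counts and sums instead. Plod3, Acvr2a, C1qtnf1, C1qtnf6, Cntf, Ppard, Ppara, Arnt, Rela, Hif1a, Epas1 and Cebpd were named after their values were seen. Among the receptors and partners, 1 gene counted with its list is not reported here by itself. List genes not found by name were sought under older symbols.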

Additional observations from a re-analysis of the deposited data

Results flagged for a closer look

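A transcript row at the Vegfa locus is listed under the name Vegf and was outside the comparison by gene name. Its level was 9.50 FPKM in KO, above the 4.74 FPKM of the WT control, a 2.01-fold difference that is larger than that of any of the 7 rows named Vegfa. The difference between this row and the others was not tested.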

How the results depend on the processing

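Of 13 alternatives, centring on the fat cell markers and adding the Vegf row were chosen after seeing the data. The count of members at least 1.5-fold higher, 0 as reported, was 2 when scaled to Ppia (Cfd and Vegfa). It was 1 after rescaling without muscle markers and the 20 highest genes (Vegfa), 1 with the single highest row per gene (Vegfa) and 1 with no filter on low values (Fgf21, listed at 0 in WT, whose log2 ratio of 0.75 depends on the pseudocount). The median log2 ratio of the members was 0.37 when scaled to Ppia, which put the median of all genes at 0.45. Under the other alternatives it ran from -0.18 (centred on the fat cell markers) to 0.12 (rescaled without muscle markers and the highest genes). These values lie within the counting interval of Nrg4, the gene at the median (-0.31 to 0.15), computed with its shortest transcript. That interval covers the counting error of 1 gene and not the spread of a median of 7, so it cannot show that the median is stable. Counts of members at least 1.5-fold lower, or 3-fold changed either way, were 0 under all 13. Rescaling without muscle markers and the highest genes put the median of all genes at 0.21. Of the values of single members, 69 stayed within their counting interval, computed with the shortest transcript, and 21 moved beyond it. Nrg4 changed sign under 3 alternatives, and Retn lay at -0.004 when centred on the fat cell markers. No replicate could be left out. No paired analysis was possible because each genotype has a single library. Depth limits Bmp8b, Fgf21 and Il6 most, and Lep where its shortest transcript is assumed.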
